A study of Mus musculus with 10 samples.

Results

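The subunits of respiratory complexes II to V were examined in mouse embryonic forebrain (wild-type, embryonic day 15.5) after the dams ate pelleted or powdered chow. Genes were chosen by a rule on their symbol, with earlier results of these data known. It took Sdha to Sdhd for complex II, and Cyc1 and symbols that start with Uqcr for complex III. For complex IV it took symbols that start with Cox4, Cox5, Cox6, Cox7 or Cox8, and for complex V those that start with Atp5. Of 21225 probe sets, each standing for 1 gene, 40 met this rule: 4 of complex II, 7 of complex III, 17 of complex IV and 12 of complex V. A further 8 coding genes of the rule had no probe set here and were not analysed, namely Uqcrb and Uqcr11 of complex III, Cox7c of complex IV and Atp5g1, Atp5g2, Atp5h, Atp5l and Atp5md of complex V. None of the subunits encoded by mitochondrial DNA was measured.

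Females of C57Bl/6J were crossed with Ts1Cje males, a line used to model Down syndrome, and only wild-type fetuses entered either group. The 5 pelleted chow arrays (animals 05, 07, 09, 11 and 15) came from dams fed Teklad 2918, and the 5 powdered chow arrays (animals 87, 88, 108, 111 and 115) from dams fed Bioserv F3197, a purified diet, in both cases from first breeding onwards. Each array held the forebrain of 1 embryo, and each embryo of a group came from a separate litter. The diets differed in many components at once, among them carbohydrate, isoflavones and most vitamins and minerals, so no single component can be told apart from the rest. The animal numbers of the diets do not overlap, and a difference in when the samples were prepared cannot be told apart from the diet. The p-values measure the spread between embryos of separate litters.

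Complexes II to V carry out the later steps of oxidative phosphorylation in the inner mitochondrial membrane. Succinate dehydrogenase (complex II) and the cytochrome bc1 complex (complex III) pass electrons through ubiquinone to cytochrome c, cytochrome c oxidase (complex IV) hands them to oxygen, and ATP synthase (complex V) uses the proton gradient so made to form ATP. Complex II is wholly encoded in the nucleus, while the other complexes join nuclear subunits with a few from mitochondrial DNA. Neurons draw most of their ATP from this chain, while dividing neural progenitors are known to rely more on glycolysis.

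The promoters of 3 genes with large differences and of Cox6a1 are shown first, to set those that hold a motif of a respiratory gene regulator beside those that do not. The RefSeq table (GRCm38.p6) held 32 promoter windows for 29 of the 40 genes, each running from 250 bases before the annotated start to 50 after it. The 250 bases before the start are printed from 5′ to 3′ on the gene's strand in lower case, with matches to the binding motif of nuclear respiratory factor 1 in capitals. Cox7a2l (chr17:83514334-83514583, minus strand) and Atp5k (chr5:108434400-108434649, minus strand) had the largest rises on powdered chow, Atp5d (chr10:80142025-80142274, plus strand, the first of 2 listed starts) had the largest fall, and Cox6a1 (chr5:115348959-115349208, minus strand) rose and holds the same motif as Atp5k.
Cox7a2l: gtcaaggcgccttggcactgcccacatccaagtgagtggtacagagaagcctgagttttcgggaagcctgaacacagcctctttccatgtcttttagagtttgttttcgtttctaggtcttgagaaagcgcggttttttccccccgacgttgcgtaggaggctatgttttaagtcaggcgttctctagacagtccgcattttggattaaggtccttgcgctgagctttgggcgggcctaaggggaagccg
Atp5k: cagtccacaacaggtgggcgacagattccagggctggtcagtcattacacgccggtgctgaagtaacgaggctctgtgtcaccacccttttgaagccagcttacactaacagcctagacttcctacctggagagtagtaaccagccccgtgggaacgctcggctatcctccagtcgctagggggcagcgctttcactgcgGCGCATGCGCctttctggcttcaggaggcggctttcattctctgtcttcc
Cox6a1: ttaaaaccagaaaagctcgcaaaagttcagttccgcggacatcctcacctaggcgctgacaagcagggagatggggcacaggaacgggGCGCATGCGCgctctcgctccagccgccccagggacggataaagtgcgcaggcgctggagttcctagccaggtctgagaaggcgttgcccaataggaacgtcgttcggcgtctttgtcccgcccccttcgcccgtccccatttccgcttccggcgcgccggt
Atp5d: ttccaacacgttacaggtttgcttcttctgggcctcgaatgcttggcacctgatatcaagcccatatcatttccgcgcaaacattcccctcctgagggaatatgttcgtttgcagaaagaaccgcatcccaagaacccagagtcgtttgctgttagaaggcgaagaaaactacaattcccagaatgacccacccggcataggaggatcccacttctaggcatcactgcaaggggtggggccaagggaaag

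Values are log2 expression, and differences are powdered minus pelleted chow, fitted with limma over all probe sets with Benjamini-Hochberg adjustment. A gene rose or fell where its adjusted p was under 0.05. The lower quartile of an array lay between 6.33 and 6.53, and arrays correlated with those of their own diet at a mean of 0.992 to 0.995. Of 8 forebrain markers, 4 were higher and 0 lower on powdered chow, and their mean ran from 9.95 to 10.20 on pelleted and from 10.24 to 10.38 on powdered chow. Of 7 midbrain and hindbrain markers, 0 were higher and 3 lower, with means of 6.84 to 7.17 and 6.67 to 6.89. Erythroid markers ran from 6.98 to 7.53 and from 7.42 to 7.64, with 3 of 8 measured genes higher and 1 lower. Of 6 endothelial markers 3 were higher and 1 lower (means of 8.91 to 9.03 and 8.96 to 9.07), and of 7 microglial markers 2 were higher and 2 lower (means of 7.53 to 7.81 and 7.59 to 7.73). Over all probe sets 21.2% were higher and 21.8% lower, 43.1% in all. The part of these cell types in the results below was not tested, and in whole forebrain fewer cells of a type and less RNA per cell cannot be told apart.

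Subunit genes of complexes II to V went both ways within each complex. Of the 40 genes, 15 rose, 14 fell and 11 did not pass the test, so 72.5% were called, against 43.1% of all probe sets (21.2% higher and 21.8% lower). Brighter probe sets were called more often. Of 10612 probe sets with a mean above the median, 61.5% were called, and of the 33 subunit genes among them, 25. Of the 5306 above the upper quartile, 64.3% were called, and of the 30 subunit genes among them, 22. The median difference of the 40 genes was 0.014, beside -0.024 over all probe sets, and the median size of a difference in either direction was 0.320, beside 0.168. At the limits that the methods set for differential expression, 5 rose (Cox7a2l, Atp5k, Cox6a1, Atp5c1 and Uqcrfs1) and 4 fell (Atp5d, Cyc1, Cox8a and Cox6c), beside 4.84% and 3.43% of all probe sets. The values of 13 genes on all 5 powdered chow arrays lay above all 5 on pelleted chow and those of 9 lay below, beside 16.9% and 15.7% of all probe sets.

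**Figure D1:**
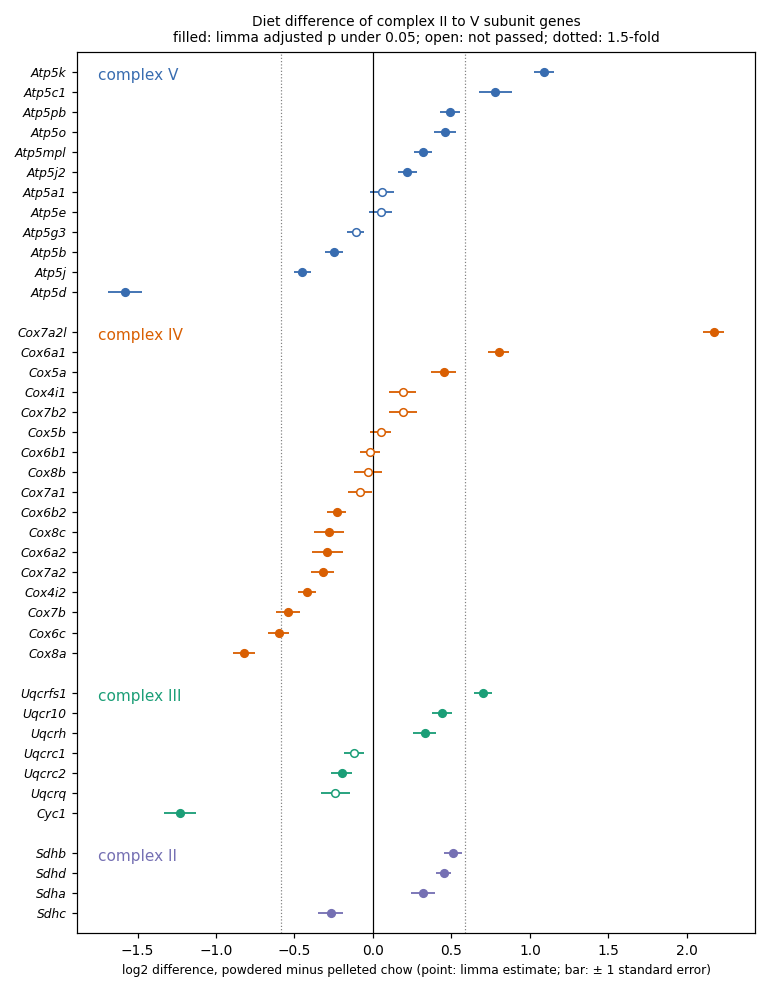
Difference of each of the 40 subunit genes, powdered minus pelleted chow on the log2 scale (horizontal axis), by complex (colour), as the limma estimate (point) with 1 standard error (bar). Filled points passed at an adjusted p under 0.05 and dotted lines mark a fold change of 1.5. Each complex has filled points on both sides of 0, from Atp5d at -1.58 to Cox7a2l at 2.17.

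In complex II, 3 of 4 genes rose and 1 fell, each by less than 1.5-fold. All 4 were thus called, beside 43.1% of all probe sets (21.2% higher and 21.8% lower). All 4 were brighter than the median, and 61.5% of the probe sets brighter than it were called. Sdha, the flavoprotein that oxidizes succinate, and Sdhb, the iron-sulfur subunit that takes its electrons, form the head of the complex, while Sdhc and Sdhd anchor it in the membrane and bind ubiquinone and heme. Sdhb read 10.07, 10.12, 10.10, 9.87 and 10.09 on pelleted chow and 10.55, 10.51, 10.54, 10.66 and 10.54 on powdered chow, in the order of the animal numbers. All powdered chow values of Sdhb lay above all pelleted chow values, and it rose 1.43-fold (difference 0.51, standard error 0.06, adjusted p = 1.61e-05). Sdhd read 9.33, 9.39, 9.40, 9.33 and 9.33 on pelleted and 9.83, 9.76, 9.88, 9.78 and 9.81 on powdered chow. Its groups did not overlap either, and it rose by 0.45 (standard error 0.05, adjusted p = 6.71e-06). Sdha rose by 0.32 (standard error 0.07, adjusted p = 0.00341), with pelleted chow animal 11 at 10.37, the other 4 at 10.63 to 10.79 and powdered chow at 10.94 to 11.02.
Sdhc, the partner of Sdhd in the anchor, went the other way. Its values were 10.26, 10.41, 10.30, 10.59 and 10.39 on pelleted and 10.17, 10.26, 10.19, 9.95 and 10.00 on powdered chow. The groups touched at 10.26, and the fall was 0.27 on the log2 scale (adjusted p = 0.0125).

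In complex III, 3 of 7 genes rose and 2 fell (71.4% called, beside 43.1% of all probe sets and 61.5% of those brighter than the median). The subunits that carry electrons moved apart: Uqcrfs1, the Rieske iron-sulfur protein, rose and Cyc1, the heme-bearing cytochrome c1 that receives its electrons and passes them to cytochrome c, fell. Cyc1 read 10.38, 10.70, 10.82, 11.04 and 10.76 on pelleted and 9.58, 9.50, 9.41, 9.66 and 9.40 on powdered chow. No values overlapped, and the level was 2.34-fold lower on powdered chow (difference -1.23, standard error 0.10, adjusted p = 9.61e-07). Uqcrfs1 read 8.77, 8.86, 8.75, 8.61 and 8.78 on pelleted and 9.36, 9.51, 9.47, 9.53 and 9.42 on powdered chow. It was higher on every powdered chow array, by 0.70 (standard error 0.06, adjusted p = 9.59e-07), or 1.63-fold.
Among the small subunits, Uqcr10 read 8.85, 8.95, 9.08, 8.96 and 8.78 on pelleted and 9.34, 9.36, 9.43, 9.37 and 9.31 on powdered chow. It rose from 8.92 ± 0.11 to 9.36 ± 0.04 (SD, n = 5 each), by 0.44 (adjusted p = 7.12e-05), with no overlap. The acidic hinge protein gene Uqcrh, whose product helps cytochrome c to dock, rose by 0.33 (adjusted p = 0.00248), with 10.24 to 10.55 on pelleted and 10.54 to 10.80 on powdered chow, so that the groups overlapped by a little. Uqcrq differed by -0.24 and missed the threshold narrowly (adjusted p = 0.0525). It passed in 11 of 21 alternative settings, among them without pelleted chow animal 05 or 11 or powdered chow animal 111, and its adjusted p ran from 0.00205 to 0.133 over the settings other than the test against a fold change.
The core proteins Uqcrc1 and Uqcrc2, which face the matrix and carry no redox group, had the smallest differences of the 7 genes. Uqcrc2 read 11.48, 11.43, 11.33, 11.13 and 11.43 on pelleted and 11.19, 11.15, 11.09, 11.22 and 11.15 on powdered chow. The groups overlapped through pelleted chow animal 11, and it fell by 0.20 on the log2 scale (adjusted p = 0.0313), a call that was lost in 8 of 21 alternative settings. Without pelleted chow animal 05, 07 or 15 or powdered chow animal 88, 108 or 115, the adjusted p of Uqcrc2 lay between 0.0577 and 0.0752, and over all arrays left out in turn it was 0.00191 to 0.0752. Uqcrc1 read 10.40, 10.74, 10.58, 10.56 and 10.59 on pelleted and 10.55, 10.45, 10.49, 10.39 and 10.38 on powdered chow. The groups of Uqcrc1 overlapped, and it differed by -0.12 (standard error 0.07, adjusted p = 0.151). It passed in 3 of 21 alternative settings. These were without pelleted chow animal 05 (difference -0.17, adjusted p = 0.0395, against 0.0395 to 0.331 over all arrays left out in turn), with array quality weights (adjusted p = 0.0458), and without pelleted chow animals 05 and 11 together (adjusted p = 0.0345).

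In complex IV, 3 of 17 genes rose, 8 fell and 6 did not pass the test. The share called was 64.7%, beside 43.1% of all probe sets and 61.5% of those brighter than the median. Cox4i2, Cox6b2, Cox7a1, Cox7b2, Cox8b and Cox8c lay below that median, so the last share is not a like measure for all 17 genes. Its catalytic core comes from mitochondrial DNA and was not measured, so all 17 genes encode nuclear subunits that surround the core, or variants of them. The largest rise belonged to Cox7a2l, which encodes a relative of subunit 7a known as a factor that joins complexes III and IV into supercomplexes. C57BL/6 mice are known to carry a shortened form of this protein. Cox7a2l read 8.14, 8.25, 8.17, 8.08 and 8.31 on pelleted and 10.34, 10.33, 10.23, 10.56 and 10.37 on powdered chow. The groups lay far apart, and the level was 4.52-fold higher on powdered chow (difference 2.17, standard error 0.07, adjusted p = 3.33e-10).
Cox7a2, the paralog that makes the subunit 7a of most tissues, fell. Its values were 9.70, 9.80, 9.77, 9.77 and 9.94 on pelleted and 9.47, 9.45, 9.40, 9.72 and 9.38 on powdered chow, and the difference was -0.32 (standard error 0.07, adjusted p = 0.00288). Animal 111 alone reached the pelleted chow range. Cox7a1, the paralog of heart and skeletal muscle, read 6.95, 7.11, 7.16, 7.42 and 7.11 on pelleted and 7.09, 7.09, 7.13, 6.96 and 7.06 on powdered chow. The groups overlapped and it did not pass (difference -0.08, adjusted p = 0.413), with a difference of Cox7a1 of -0.134 without pelleted chow animal 05 and -0.0164 without animal 11.

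**Figure D2:**
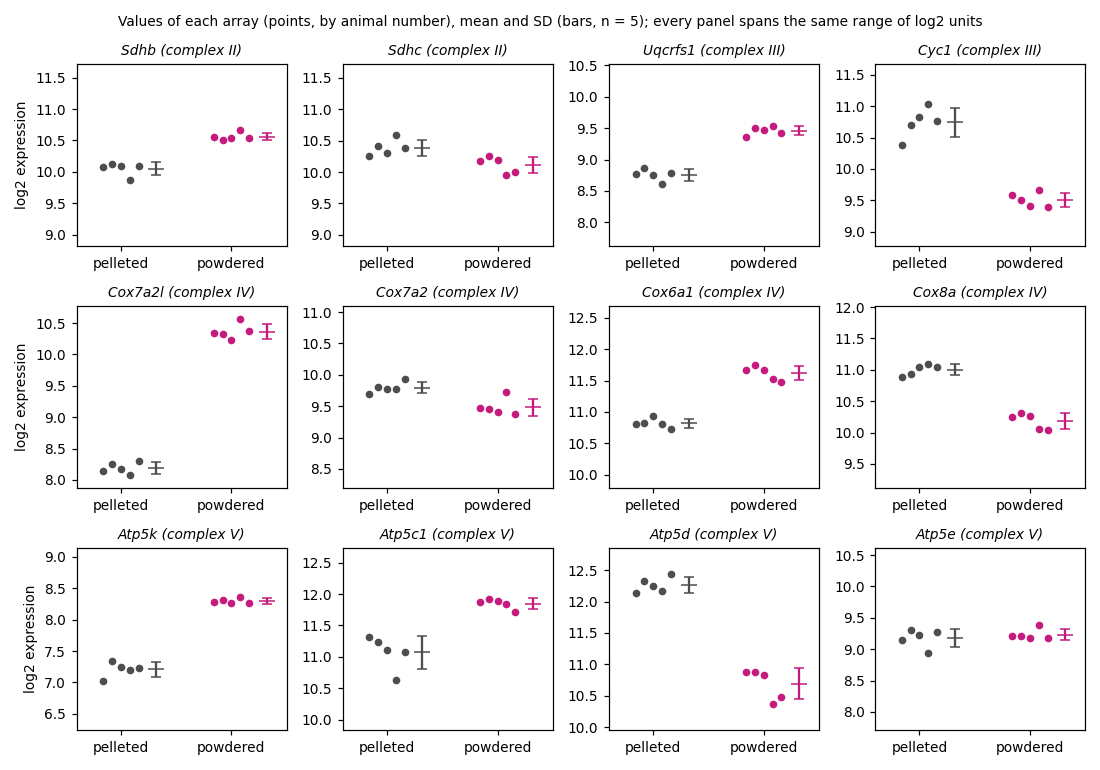
Log2 expression of 12 subunit genes (vertical axes, the same span in every panel) on the 5 pelleted and 5 powdered chow arrays (points, ordered by animal number), with the mean and SD of each diet beside them. Points of Cox7a2l and Atp5k rise and those of Cyc1, Cox8a and Atp5d fall without overlap, while those of Atp5e overlap.

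Cox6a1 and Cox5a were the other rises in complex IV. Cox6a1, a subunit thought to regulate the enzyme and steady its dimer, read 10.81, 10.82, 10.93, 10.80 and 10.72 on pelleted and 11.67, 11.75, 11.67, 11.53 and 11.48 on powdered chow. Every powdered chow value was higher, by a mean of 0.80 (standard error 0.06, adjusted p = 6.78e-07), or 1.75-fold. Its paralog of heart and skeletal muscle, Cox6a2, read 8.27, 7.75, 7.97, 8.06 and 7.98 on pelleted and 7.55, 7.70, 7.98, 7.58 and 7.79 on powdered chow. The groups overlapped, and it fell by 0.29 on the log2 scale (standard error 0.10, adjusted p = 0.0339). That call was lost in 11 of 21 alternative settings, among them without pelleted chow animal 05, 09, 11 or 15 or powdered chow animal 87, 88 or 111, with an adjusted p of Cox6a2 from 0.00899 to 0.0846 over arrays left out in turn.
Cox5a read 9.66, 9.94, 9.88, 9.49 and 9.78 on pelleted and 10.24, 10.23, 10.18, 10.20 and 10.15 on powdered chow. This subunit on the matrix side was higher on all 5 powdered chow arrays, by 0.45 (adjusted p = 3.80e-04). Cox5b, the zinc-binding subunit beside it, read 11.18, 11.36, 11.42, 11.22 and 11.31 on pelleted and 11.42, 11.42, 11.21, 11.40 and 11.26 on powdered chow. The ranges nearly coincided, and the difference of 0.05 (standard error 0.07) did not pass (adjusted p = 0.600).

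The largest falls in complex IV were those of Cox8a, Cox6c and Cox7b, small subunits that span the membrane. Cox8a read 10.89, 10.94, 11.04, 11.09 and 11.05 on pelleted and 10.25, 10.32, 10.26, 10.05 and 10.04 on powdered chow. It was 1.76-fold lower (difference -0.82, standard error 0.07, adjusted p = 1.10e-06). Cox6c read 12.03, 12.04, 12.16, 11.90 and 12.03 on pelleted and 11.44, 11.56, 11.47, 11.44 and 11.25 on powdered chow, and fell by 0.60 on the log2 scale (standard error 0.07, adjusted p = 1.15e-05). For neither gene did any values of the diets overlap. Cox7b, which is X-linked and needed for assembly of the complex, read 10.29, 10.10, 10.26, 10.52 and 10.26 on pelleted and 9.69, 9.85, 9.78, 9.79 and 9.63 on powdered chow. It too was lower on every powdered chow array, by a difference of -0.54 (adjusted p = 6.60e-05).
Subunit 4, through which ATP is known to slow the enzyme, has a general form, Cox4i1, and a form of lung that low oxygen induces, Cox4i2. Cox4i2 read 8.06, 7.85, 8.03, 8.07 and 7.97 on pelleted and 7.63, 7.55, 7.66, 7.54 and 7.52 on powdered chow. The groups lay apart, and it fell by 0.42 on the log2 scale (standard error 0.06, adjusted p = 6.89e-05). Cox4i1 read 10.35, 10.47, 10.42, 10.03 and 10.29 on pelleted and 10.44, 10.48, 10.54, 10.69 and 10.37 on powdered chow. The groups overlapped, pelleted chow animal 11 was the lowest, and the difference of 0.19 (standard error 0.09) did not pass (adjusted p = 0.0837). Cox6b1, whose product faces the space between the membranes, differed by -0.02 (standard error 0.06, adjusted p = 0.833), and its sign turned in 3 settings.

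Isoforms of complex IV that are known from particular tissues numbered 7, a grouping made after their values were seen: Cox4i2 of lung, Cox6a2, Cox7a1 and Cox8b of heart and skeletal muscle, and Cox6b2, Cox7b2 and Cox8c of testis. Of these, 4 fell and 0 rose, so 57.1% were called, all of them lower, beside 43.1% of all probe sets called and 21.8% lower. The genes that fell were dim. Cox4i2, Cox8c and Cox6b2 had means over all arrays of 7.79, 7.13 and 6.90, below the median of 7.85, and Cox6a2 lay at 7.86. No detection calls were used, so whether these isoforms are expressed in forebrain was not tested. Cox8c read 7.55, 7.10, 7.28, 7.11 and 7.31 on pelleted and 6.96, 6.91, 7.23, 6.81 and 7.04 on powdered chow. The groups overlapped, and it fell by 0.28 on the log2 scale (adjusted p = 0.0295). It lost that call in 10 of 20 alternative settings, among them without pelleted chow animal 05, 09 or 15 or powdered chow animal 87, 88 or 111, with an adjusted p of Cox8c from 0.00884 to 0.0742 over arrays left out in turn. Cox6b2 fell by 0.23 (adjusted p = 0.00736), from 6.95 to 7.08 on pelleted to 6.69 to 6.95 on powdered chow. Cox8b read 6.63, 6.24, 6.28, 6.32 and 6.40 on pelleted and 6.21, 6.28, 6.61, 6.37 and 6.25 on powdered chow. Cox7b2 read 4.88, 4.71, 4.74, 4.85 and 4.64 on pelleted and 4.82, 4.75, 5.24, 4.92 and 5.03 on powdered chow. Both genes overlapped between the diets, with powdered chow animal 108 the highest of its diet. Cox8b and Cox7b2, whose means over all arrays of 6.36 and 4.86 were below the lower quartile of 6.42, differed by -0.03 and 0.19 and did not pass (adjusted p = 0.817 and 0.103). For Cox8b the direction flipped with quantile and cyclic loess normalization, and Cox7b2 passed in 3 settings, 1 of them without powdered chow animal 88 (adjusted p = 0.0482, against 0.0482 to 0.218 over arrays left out in turn). Of 10 muscle markers, 1 was higher and 0 lower, and their mean ran from 7.09 to 7.32 on pelleted and from 7.15 to 7.31 on powdered chow. Their part in the values of the muscle isoforms was not tested. With the 7 isoforms left out, 15 of 33 genes rose and 10 fell.

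In complex V, 6 of 12 genes rose, 3 fell and 3 did not pass the test. The catalytic F1 head joins the alpha and beta subunits (Atp5a1 and Atp5b), which bind nucleotides, with the gamma, delta and epsilon subunits of the central stalk (Atp5c1, Atp5d and Atp5e), which turn with the rotor. These stalk genes had 3 different outcomes. Atp5d read 12.14, 12.32, 12.25, 12.16 and 12.44 on pelleted and 10.88, 10.88, 10.83, 10.36 and 10.48 on powdered chow. The level was 2.98-fold lower with no overlap (difference -1.58, standard error 0.11, adjusted p = 2.15e-07). Atp5c1 read 11.31, 11.23, 11.11, 10.63 and 11.08 on pelleted and 11.88, 11.93, 11.89, 11.84 and 11.71 on powdered chow. Pelleted chow animal 11 was the lowest, the groups did not overlap, and the rise was 0.78 (standard error 0.11, adjusted p = 6.35e-05), or 1.71-fold. Atp5e ran from 8.94 to 9.31 on pelleted and from 9.18 to 9.38 on powdered chow, and its difference of 0.05 (standard error 0.07) did not pass (adjusted p = 0.597).
Of the subunits that bind nucleotides, Atp5b fell by 0.25 (standard error 0.06, adjusted p = 0.00297), with values of 12.76, 12.81, 12.72, 12.56 and 12.80 on pelleted and 12.50, 12.52, 12.48, 12.46 and 12.44 on powdered chow. No values overlapped, but the nearest were only 12.56 and 12.52. Atp5a1 differed by 0.06 (standard error 0.08, adjusted p = 0.557) with overlap.

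The peripheral stalk, which holds the head still while the rotor turns, had 3 measured genes, of which 2 rose and 1 fell. Over all probe sets 21.2% were higher and 21.8% lower, and 61.5% of those brighter than the median were called. Atp5pb, subunit b, read 10.18, 10.25, 10.06, 9.91 and 10.13 on pelleted and 10.63, 10.53, 10.63, 10.58 and 10.61 on powdered chow, a rise of 0.49 (adjusted p = 4.67e-05). Atp5o, the subunit that links the stalk to the head, read 9.81, 10.18, 10.05, 9.87 and 9.99 on pelleted and 10.39, 10.42, 10.50, 10.50 and 10.39 on powdered chow, a rise of 0.46 (adjusted p = 1.40e-04). Atp5j, coupling factor 6, read 11.23, 11.29, 11.21, 11.15 and 11.17 on pelleted and 10.86, 10.82, 10.70, 10.74 and 10.70 on powdered chow, and fell by 0.45 on the log2 scale (standard error 0.05, adjusted p = 2.15e-05). In each of the 3 genes all powdered chow values lay on one side of the pelleted chow values.
In the membrane part, 3 of 4 genes rose and 0 fell, beside 21.2% higher and 21.8% lower of all probe sets. Atp5k, subunit e, which helps ATP synthases to pair and bend the inner membrane into cristae, read 7.02, 7.34, 7.25, 7.20 and 7.23 on pelleted and 8.28, 8.32, 8.26, 8.36 and 8.26 on powdered chow. It was 2.13-fold higher on powdered chow (difference 1.09, standard error 0.06, adjusted p = 5.63e-08), with an SD of 0.12 and 0.04 and no overlap. Atp5k was dim, with a mean over all arrays of 7.75, below the median of 7.85. Atp5mpl, a small proteolipid, rose from 10.23 ± 0.09 to 10.55 ± 0.05 (SD, n = 5 each), by 0.32 (adjusted p = 4.75e-04). Atp5j2, subunit f, read 10.80, 10.96, 10.96, 11.11 and 10.87 on pelleted and 11.20, 11.22, 11.13, 11.19 and 11.06 on powdered chow. It rose by 0.22 (adjusted p = 0.0129), with overlap through pelleted chow animal 11. Atp5g3, 1 of 3 genes for the subunit of the proton-carrying c ring and the only one measured here, differed by -0.11 (standard error 0.05, adjusted p = 0.127).

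**Figure D3:**
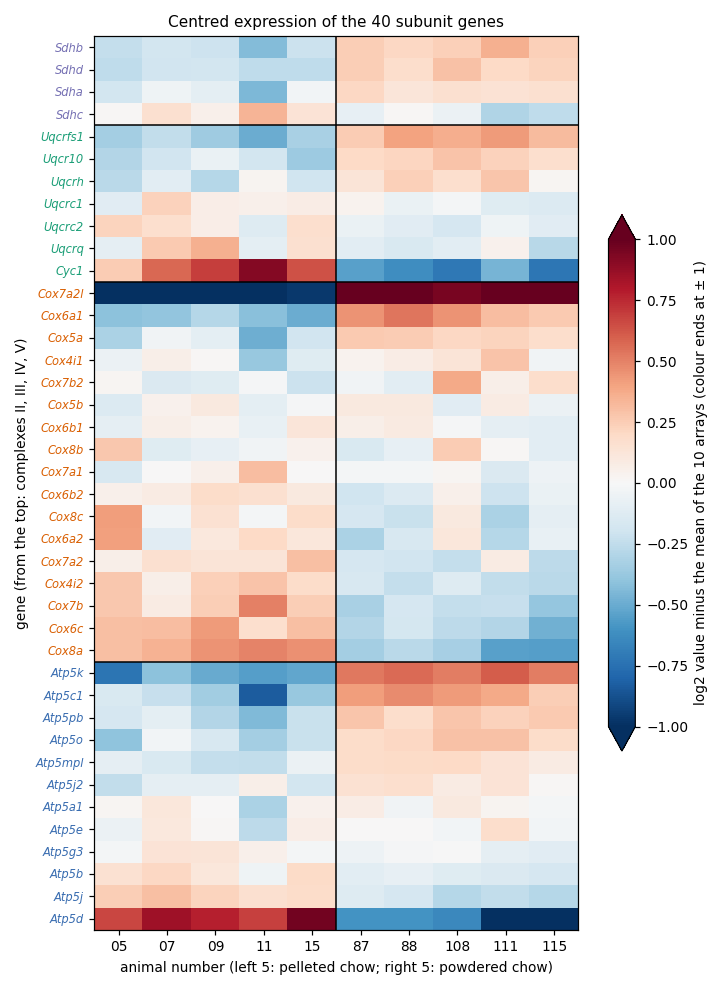
Log2 value of each subunit gene (rows, complexes II to V from the top, gene names coloured by complex) on each array (columns, by animal number), minus its mean over the 10 arrays; the colour scale ends at 1 log2 unit either way. The sign changes at the line between the diets for genes with large differences, as for Cox7a2l and Atp5d, and not for genes such as Cox6b1 and Atp5a1.

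Genes that assemble these complexes also went both ways. Of 39 measured assembly factors, 9 were higher, 15 lower and 15 did not pass (median difference -0.086), beside the shares of 21.2% and 21.8% over all probe sets. The share called was 61.5%, beside 43.1% of all probe sets and 61.5% of those brighter than the median. For complex IV the counts were 5 higher and 8 lower of 23. Cox17, the copper chaperone that supplies the enzyme's metal centers, rose by 1.96 (standard error 0.07, adjusted p = 1.89e-09) from 7.10 ± 0.08 to 9.07 ± 0.14 (SD, n = 5 each). Cox11, which also serves copper insertion, and Cox18, which inserts a core subunit into the membrane, fell by 0.96 and 0.77 (adjusted p = 3.52e-07 and 4.73e-07). For complex III, 3 of 6 were higher and 2 lower. Uqcc2, an early assembly factor, fell by 1.19 (adjusted p = 6.59e-07), and Lyrm7, a chaperone of the Rieske protein, fell by 0.97 (adjusted p = 4.45e-06), while Uqcc1, the partner of Uqcc2, rose by 0.38 (adjusted p = 0.00194). Lyrm7 and the gene of its client, Uqcrfs1, thus had opposite signs.
For complex II, 0 of 4 assembly factors were higher and 2 lower: Sdhaf1 and Sdhaf3, which help iron-sulfur clusters into Sdhb, fell by 0.37 and 0.26 (adjusted p = 0.00110 and 0.00373). Sdhaf4 differed by 0.10 and did not pass (adjusted p = 0.469). For complex V, 1 of 6 was higher and 3 lower. Tmem70, which serves formation of the c ring, rose by 0.59 (adjusted p = 1.10e-06), and Atpaf2 and Fmc1, which serve assembly of the F1 head, fell by 0.45 and 0.44 (adjusted p = 1.65e-04 and 8.40e-04).

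Of 10 measured carriers that feed or serve the chain, 5 were higher and 3 lower (80.0% called, beside 43.1% of all probe sets and 61.5% of those brighter than the median). Etfdh, which brings electrons from fatty acid oxidation to ubiquinone, rose by 0.79 (standard error 0.06, adjusted p = 2.96e-07). Slc25a4, an exchanger of ADP and ATP, rose by 0.82 (adjusted p = 6.59e-07), while Slc25a3, which imports phosphate for ATP synthase, fell by 0.84 (adjusted p = 3.94e-06). Of 12 measured regulators of mitochondrial biogenesis, 6 were higher and 5 lower (91.7% called, beside the same shares). Both lists were chosen with earlier results of these data known, so their shares cannot test for an excess. Gabpb1 and Gabpa, the subunits of the ETS-family factor GABP that acts on many respiratory genes, rose by 0.49 and 0.63 (adjusted p = 4.55e-05 and 4.81e-05), and Yy1 fell by 0.43 (adjusted p = 5.86e-05).

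**Figure D4:**
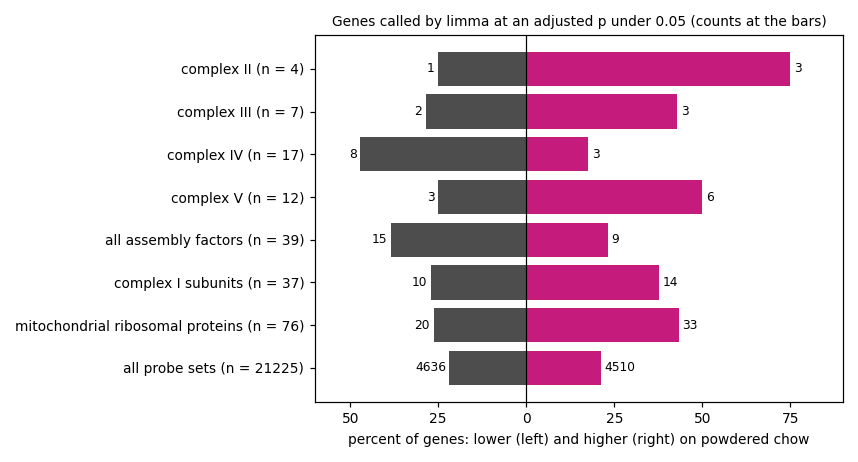
Percent of genes called lower (left, grey) and higher (right, magenta) on powdered chow by limma at an adjusted p under 0.05, with the counts at the bars, for complexes II to V, their assembly factors, complex I, mitochondrial ribosomal proteins and all probe sets. Every group of respiratory genes has calls on both sides, as do all probe sets at 21.8% and 21.2%.

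Complex I and the mitochondrial ribosome are set beside these complexes for scale. Of 37 complex I subunit genes 14 were higher and 10 lower (64.9% called, median size 0.403). Of 76 mitochondrial ribosomal protein genes 33 were higher and 20 lower (69.7% called, median size 0.360). Over all probe sets 43.1% were called, with 61.5% of those brighter than the median and 64.3% of those above the upper quartile. The share called in complexes II to V, 72.5%, was not tested against either of them.

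Each of 3 motifs was found in genes of more than one outcome. The motif GCGCATGCG of nuclear respiratory factor 1, searched on both strands of the 300-base windows, was found in 3 of 32 windows of subunit genes (9.38%), beside 1.75% of all 32851 windows in the table. The genes were Atp5k and Cox6a1, which rose, and Uqcrc1, which did not pass. In each of them the match reads on both strands, because the motif is nearly its own reverse complement. With the annotated start as base 0, it spans -50 to -41 in Atp5k and -162 to -153 in Cox6a1, the stretches in capitals in the printed sequences, and 30 to 39 in Uqcrc1. The ETS motif CCGGAAGT, to which GABP binds, was in 2 windows (6.25%, beside 3.89%), those of Uqcrh, which rose, and Cox8a, which fell. The Yy1 motif AAGATGGCG was in 2 windows (6.25%, beside 1.4%), those of Atp5j2, which rose, and Atp5j, which fell. The printed stretches of Cox7a2l and Atp5d held none of the 3 motifs. The median GC content of the 250 bases before the start was 54.6% for subunit genes and 52.4% for all windows, with a median of 13.5 and 6 CG dinucleotides.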

How the data were processed

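Forebrain RNA of 10 wild-type embryos, each on its own Affymetrix Mouse Gene 1.0 ST array, was compared. The authors deposited log2 expression values, made with the robust multichip average algorithm (RMA: background correction, quantile normalization and 1 summary value for every probe set) and the MBNI custom CDF version 15, in which each of 21225 probe sets stands for 1 Entrez gene. RMA draws the probe intensities of all arrays to the same distribution before the summary, so every difference is relative to the rest of the array. The summary values did not share 1 distribution exactly, with lower quartiles of 6.33 to 6.53. The genome build of the probe definition is not given in the sources used here, and no detection calls were used. A probe set was named through its Entrez ID in the RefSeq table (20768 matched, 457 unnamed). Subunit genes were taken by symbol.

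Samples were grouped by title. Diets were compared with limma 3.58.1 in R 4.3.3 (lmFit and eBayes, no covariates) on all probe sets, with Benjamini-Hochberg adjustment over all of them; a gene passed the test at an adjusted p under 0.05. The limits of the methods are 0.001 for the raw p, 0.01 for the adjusted p and 1.5 for the fold change. Tables and plots used Python 3.11.15 with pandas 2.3.3. The fit was tested on simulated data before use. The number of arrays limits the precision (median standard error 0.0723). The labels give no litter, slide, scan date or sex, and animal numbers are not shared by the diets, so no block or pairing was fitted. Subunits, lists and named genes were chosen with earlier results of these data known. The values of every array are given for up to 2 of the largest rises and falls that passed in each of complexes II and III, up to 4 in each of complexes IV and V, and genes of the same symbol stem, and each further list is described by its 3 lowest p. Alternatives were Welch's t-test, the t-test named in the methods, array weights, a trended and robust prior, 3 normalizations, 2 filters on dim probe sets, other limits and leaving out each array. Leaving out pelleted chow arrays 05 and 11 together was added after seeing the data.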

Additional observations from a re-analysis of the deposited data

Results flagged for a closer look

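Within a diet, an array stood apart from the other 4 in 5 of the 80 sets of 5 values (40 genes in each diet), where chance would give about 4. The gap to the nearest array was 0.721 to 0.843 of the whole range in these sets. Sdhb read 9.87 in pelleted chow replicate 11 (others 10.07 to 10.12) and 10.66 in powdered chow replicate 111 (others 10.51 to 10.55). Cox7a2 read 9.72 in powdered chow replicate 111 (others 9.38 to 9.47), and Atp5e read 9.38 in the same array (others 9.18 to 9.21). Atp5a1 read 11.12 in pelleted chow replicate 11 (others 11.44 to 11.55).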

How the results depend on the processing

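Of 29 called genes, 26 kept their call at an adjusted p under 0.05 in every alternative fit that measured them, other than the test against a fold change of 1.5, the exceptions being Uqcrc2, Cox6a2 and Cox8c. That test left 2 genes higher (Cox7a2l and Atp5k) and 2 lower (Atp5d and Cyc1), with 0 and 0 in complex II, 0 higher and 1 lower in complex III, 1 and 0 in complex IV and 1 and 1 in complex V. The limits of the methods left 5 higher and 4 lower, with 0 and 0 in complex II, 1 and 1 in complex III, 2 and 2 in complex IV and 2 and 1 in complex V. At these limits 4 were higher with Welch's t-test or the dim filter at the median. The number lower was 5 without pelleted chow animal 07, and 3 without pelleted chow animal 09 or powdered chow animal 115. Cox6c, at 1.52-fold, lay close to the fold limit, with differences of -0.6332 to -0.5544 over single arrays left out. Genes lower in complex III (2 in the main test) numbered 1 with Welch's t-test, 4 with array quality weights, 4 without pelleted chow arrays 05 and 11, and 1 to 3 with single arrays left out: 1 without pelleted chow animal 07 or 15 or powdered chow animal 88, 108 or 115, where Uqcrc2 lost its call. Genes lower in complex IV numbered 5 rather than 8 with the dim filter at the median, which leaves out 7 of the 40 genes. Genes higher in complex V numbered 5 rather than 6 with that filter, which leaves out Atp5k. The quantile, median centring and loess alternatives moved the median of all probe sets from -0.024 to between -0.032 and -0.007, and none ended a call.

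Directions turned only in genes that did not pass. Cox8b differed by 0.0052 with quantile normalization, 0.0174 with cyclic loess, 0.0364 without pelleted chow arrays 05 and 11 and -0.0958 to 0.0339 with single arrays left out. Without arrays 05 and 11, Cox5b differed by -0.0164, Atp5e by -0.0357 and Atp5a1 by -0.0202, and Atp5e by -0.0094 with array quality weights. With single arrays left out, Cox6b1 ranged from -0.0439 to 0.0089, Atp5e from -0.0063 to 0.0853 and Atp5a1 from -0.0125 to 0.0959. The cause of these changes was not tested. No paired analysis was possible because the diets share no animal numbers. Cox8b and Cox7b2 were dimmer than the lower quartile of all probe sets, which limits what their values can show.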

Other observations

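Within the diets, single arrays lay at the edge of many of the 40 genes. Powdered chow animal 115 had the lowest value of its diet in 21 genes and the highest in 0. Pelleted chow animal 11 had the lowest in 17 and the highest in 8, and animal 05 the lowest in 13 and the highest in 6. How often these arrays lay at the edge over all probe sets was not counted, so these counts cannot be called particular to the subunit genes. The SD was larger on pelleted than on powdered chow in 27 of the 40 genes, beside 11438 of all 21225 probe sets.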
